A study of Neurospora crassa with 19 samples.

Results

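Reactive oxygen is made and removed by separate enzymes in Neurospora crassa, a filamentous fungus. Of the 9730 genes counted here, 9 that encode such enzymes or a regulatory subunit were chosen. They were taken by locus: the catalase genes cat-1 (NCU08791), cat-2 (NCU05770), cat-3 (NCU00355) and cat-4 (NCU05169), the superoxide dismutase genes sod-1 (NCU02133) and sod-2 (NCU01213), the NADPH oxidase genes nox-1 (NCU02110) and nox-2 (NCU10775), and their regulatory subunit gene nor-1 (NCU07850). Each locus carried the same symbol in a RefSeq gene table of assembly NC12. nox-1, nox-2 and nor-1 are called makers, although nor-1 encodes a regulatory subunit and not an oxidase. The other 6 are called removers. NADPH oxidases pass electrons from NADPH to oxygen and so make superoxide. Superoxide dismutases turn superoxide into hydrogen peroxide, and catalases break hydrogen peroxide down to water and oxygen. In Neurospora these enzymes are studied as part of hyphal growth, conidiation (the making of asexual spores) and sexual development.

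The values come from 2 poly-A RNA libraries of strain N5801, which the labels give as a complete deletion of the chromatin remodeler gene dim-1 (NCU06484). Cultures had grown for 16 h at 32 °C, shaken in Vogel's minimal medium with 1.5% sucrose. The labels call the material germinated conidia, whereas the RNA protocol speaks of harvested mycelia. The other 17 samples of the series were not analysed here, and neither was a wild-type RNA library, so levels and the difference between replicates are given and no effect of the deletion. The labels do not say whether the replicates were separate cultures, so the spread and the p-values below measure only the difference between these libraries, which may be technical.

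Summed over genes, the depth was 17364963 counts in replicate 1 and 13632746 in replicate 2. The dim-1 gene itself had 258 and 171 counts. Its mean level was 1.77 CPM per kilobase of gene span, against 13.0 for the median detected gene (these terms are defined below). Per kilobase it lay above 9.17% of detected genes in replicate 1 and 9.42% in replicate 2. Reads were thus present, at a low level, at a gene labelled as completely deleted. A gene's count does not place them within the gene, so the label was not tested. The libraries are therefore named only by their label, and no direction is drawn from it. All 4 conidial marker genes had reads, from 21 and 28 counts for con-6 (NCU08769) to 2501 and 918 for con-8 (NCU09235). Sampling noise did not account for the difference between the libraries over genes (chi-square of 97.8 per degree of freedom), and they were kept as 2 samples.

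All 9 genes were detected, meaning at least 10 counts in both libraries. Together they took 0.218% of the gene counts in replicate 1 and 0.234% in replicate 2. Levels are in CPM (counts-per-million, over all gene counts of the library), and levels of different genes are put in order only after division by gene span, the distance from gene start to gene end. Of the 9 genes, 8 had a mean level per kilobase above that of the median detected gene, which was 13.0 CPM per kilobase. cat-4 was the exception.

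Among the catalases, the bifunctional catalase-peroxidase gene cat-2 stood far above the others. It had 16500 counts, or 950 CPM, in replicate 1 and 9177 counts, or 673 CPM, in replicate 2 (mean 812 ± 196; SD, n = 2). Replicate 1 was the higher library, and per kilobase cat-2 lay above 96.9% of detected genes there and above 95.5% in replicate 2. Per kilobase, cat-2 made up 85.4% of the summed catalase level in replicate 1 and 80.5% in replicate 2.

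The other large contributions came from cat-1 and cat-3, which encode the large-subunit catalases of this fungus. cat-1, whose enzyme is abundant in conidia, had 1878 counts (108 CPM) in replicate 1 and 1214 counts (89.1 CPM) in replicate 2, with a mean of 98.6 ± 13.5 CPM (SD, n = 2). cat-3, whose enzyme is associated with growing hyphae, had 941 counts (54.2 CPM) in replicate 1 and 1044 counts (76.6 CPM) in replicate 2, with a mean of 65.4 ± 15.8 CPM. The pair thus moved in opposite directions between the libraries. Per kilobase cat-1 stood 2.18 times above cat-3 in replicate 1 (exact 95% interval 2.02 to 2.36) and 1.27 times in replicate 2 (1.17 to 1.38). Intervals here and below cover counting error only.

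The remaining catalase gene, cat-4, stood far below the other 3. It had 52 counts in replicate 1, or 2.99 CPM (exact 95% interval 2.24 to 3.93), and 25 counts in replicate 2, or 1.83 CPM (1.19 to 2.71). Both values are above the limit that a count of 0 allows, 0.173 CPM in replicate 1 and 0.220 CPM in replicate 2. Per kilobase cat-4 held 0.257% of the summed catalase level in replicate 1 and 0.210% in replicate 2.

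**Figure D1:**
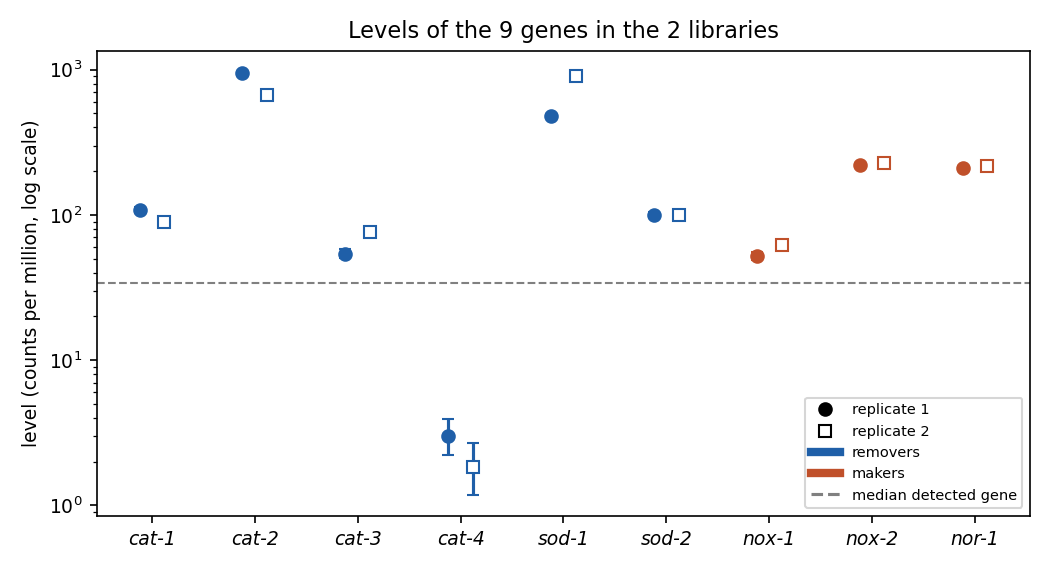
Level of each gene in CPM (log scale) in replicate 1 (filled circles) and replicate 2 (open squares), with exact 95% Poisson intervals, removers in blue and makers in orange. These levels are not divided by length, so the plot shows the gap between libraries within a gene, wide for sod-1 (482 and 898 CPM) and narrow for nox-2 (220 and 226 CPM); the dashed line is the median of detected genes (34.2 CPM).

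The superoxide dismutases were led by sod-1, the gene of the copper-zinc enzyme. sod-1 had 8370 counts, or 482 CPM, in replicate 1 and 12243 counts, or 898 CPM, in replicate 2 (mean 690 ± 294; SD, n = 2). It was the member that differed most between the libraries, and replicate 2 was the higher. sod-2, the gene of the mitochondrial manganese enzyme, had 1731 counts (99.7 CPM) in replicate 1 and 1367 counts (100.3 CPM) in replicate 2, with a mean of 100.0 ± 0.417 CPM. Per kilobase sod-1 stood 9.63 times above sod-2 in replicate 1 (exact 95% interval 9.14 to 10.1) and 17.8 times in replicate 2 (16.9 to 18.9). The lead of sod-1 therefore held in both libraries, while sod-2 hardly differed between them.

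Among the makers, nox-2 and nor-1 had the higher levels and nox-1 lay well below them. In Neurospora nox-1 is needed for normal aerial growth and for female fertility, nox-2 for the germination of sexual spores, and nor-1 for the functions of both oxidases. nox-2 had 3814 counts (220 CPM) in replicate 1 and 3087 counts (226 CPM) in replicate 2, with a mean of 223 ± 4.81 CPM (SD, n = 2). nor-1 had 3667 counts (211 CPM) in replicate 1 and 2955 counts (217 CPM) in replicate 2, with a mean of 214 ± 3.95 CPM. nox-1 had 904 counts (52.1 CPM) in replicate 1 and 841 counts (61.7 CPM) in replicate 2, with a mean of 56.9 ± 6.81 CPM.

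The 2 oxidase genes have nearly equal spans in the table, 3478 bases for nox-1 and 3480 for nox-2. Division by span therefore hardly changes their ratio, while their transcript lengths were not compared. Per kilobase nox-2 stood 4.22 times above nox-1 in replicate 1 (exact 95% interval 3.92 to 4.54) and 3.67 times in replicate 2 (3.40 to 3.96). The ratio of nox-2 to nor-1 per kilobase was 1.26 in both libraries, with intervals of 1.20 to 1.32 in replicate 1 and 1.20 to 1.33 in replicate 2. Per kilobase nox-2, needed for the germination of sexual spores, was thus the more abundant of the 2 oxidase transcripts in these libraries.

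Ordered by mean level per kilobase, the 9 genes ran from sod-1 (438 ± 187 CPM per kilobase; SD, n = 2) and cat-2 (273 ± 66.0) through nox-2 (64.1 ± 1.38), nor-1 (50.8 ± 0.938), cat-1 (33.6 ± 4.61), sod-2 (31.9 ± 0.133), cat-3 (20.4 ± 4.94) and nox-1 (16.4 ± 1.96) to cat-4 (0.778 ± 0.264). Of the neighbours in this order, sod-1 and cat-2 overlapped and changed places, since sod-1 stood at 0.957 times cat-2 in replicate 1 and 2.52 times in replicate 2. cat-1 and sod-2 also changed places, with ratios of 1.16 and 0.95. cat-3 lay above nox-1 in both libraries, by 1.13 and 1.35 times, but their ranges overlapped. The other neighbours kept their order with no overlap between the libraries.

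**Figure D2:**
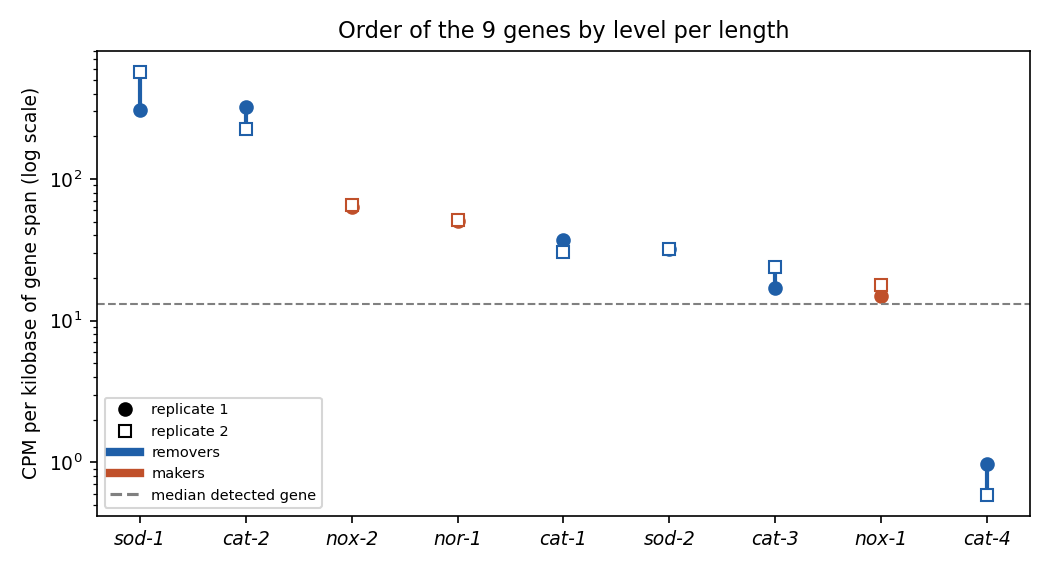
CPM per kilobase of gene span (log scale) for each gene in replicate 1 (filled circles) and replicate 2 (open squares), joined by a line and sorted by the mean, with removers in blue, makers in orange and the median detected gene dashed at 13.0. The ranges of sod-1 and cat-2, of cat-1 and sod-2, and of cat-3 and nox-1 overlap, and cat-4 stands alone at the bottom.

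Removers together were above makers in both libraries. The 6 removers summed to 713 CPM per kilobase in replicate 1 and 884 in replicate 2, against 128 and 134 for the 3 makers. The removers-to-makers ratio was 5.56 in replicate 1 and 6.58 in replicate 2, with a mean of 6.07 ± 0.725 (SD, n = 2). Without division by length the mean ratio was 3.58 ± 0.0901. sod-1 has the shortest span of the 9 genes, 1574 bases.

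The excess of removers rested mostly on cat-2 and sod-1. With these 2 genes set aside, a choice made after their values were seen, the other 4 removers stood below the makers. They stood at 0.675 times the makers' summed level in replicate 1 and 0.647 times in replicate 2. nor-1, a regulatory subunit gene, held 39.1% of the makers' level per kilobase in replicate 1 and 38.3% in replicate 2. Against nox-1 and nox-2 alone, the same 4 removers stood above in both libraries. Within the removers the balance shifted between the libraries: the 4 catalases stood at 1.11 times the superoxide dismutases per kilobase in replicate 1 and 0.467 times in replicate 2. The catalases went from 375 to 282 CPM per kilobase and the dismutases from 338 to 603. Without length the catalases-to-dismutases ratio was 1.92 in replicate 1 and 0.842 in replicate 2, and it was higher in replicate 1 either way, while the mean ratio was 0.788 with length and 1.38 without.

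The difference between the replicates was tested over all genes whose libraries summed to at least 20 counts, by an exact two-sided binomial test of each gene's reads against the library shares after TMM scaling (edgeR's correction for library composition), with Benjamini-Hochberg adjustment. An adjusted p under 0.05 was reached by 7 of the 9 genes, and by 57.3% of the 7898 genes tested. Of the 7, cat-1 and cat-2 were higher in replicate 1, where 28.2% of tested genes were higher at that threshold. The other 5, cat-3, sod-1, nox-1, nox-2 and nor-1, were higher in replicate 2, as were 29.1% of tested genes. None of the 9 also differed at least 2-fold, against 6.15% of all tested genes (5.04% higher in replicate 1 and 1.11% higher in replicate 2). The median absolute log2 ratio was 0.30 over the 9 genes and 0.29 over all tested genes.

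sod-1 came nearest to 2-fold, at 1.94-fold higher in replicate 2 (log2 ratio 0.95), a difference larger than that of 92.9% of tested genes, with an adjusted p in the exact binomial test so small that it was written as 0. cat-3 was 1.47-fold higher in replicate 2 (exact binomial test, adjusted p = 7.81e-17). cat-2 was 1.36-fold higher in replicate 1 (exact binomial test, adjusted p = 1.92e-123), and cat-1 was 1.17-fold higher there (exact binomial test, adjusted p = 6.52e-05). cat-4 had a ratio of 1.55 in favour of replicate 1 that missed the threshold at its 52 and 25 counts (exact binomial test, adjusted p = 0.105). sod-2 had a ratio of 1.05 (exact binomial test, adjusted p = 0.295).

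All 3 makers passed the exact binomial test as higher in replicate 2, as did 29.1% of all tested genes. nox-1 differed more than the other makers. nox-1 was 1.23-fold higher in replicate 2 (exact binomial test, adjusted p = 4.29e-05). nox-2 was 1.07-fold higher (exact binomial test, adjusted p = 0.00873) and nor-1 was 1.07-fold higher (exact binomial test, adjusted p = 0.0171). Of all tested genes, 48.5% differed more than nox-1, 81.0% more than nox-2 and 82.1% more than nor-1. Both missed the threshold when libraries were scaled by total counts (exact binomial test, adjusted p = 0.289 and 0.381).

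The binomial test treats reads as independent and compares 2 libraries, not conditions. edgeR's exact test used 1 common spread that these libraries themselves supplied (a coefficient of variation of 23.9% beyond counting error). It gave no member an adjusted p under 0.05, against 51 of the 7898 tested genes, all of which differed at least 2-fold. That spread includes the difference under test, and no member reached 2-fold. Not passing therefore says little about a member. By the same exact test the lowest unadjusted p of the members was that of sod-1, at p = 0.0544 (adjusted p = 0.954).

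**Figure D3:**
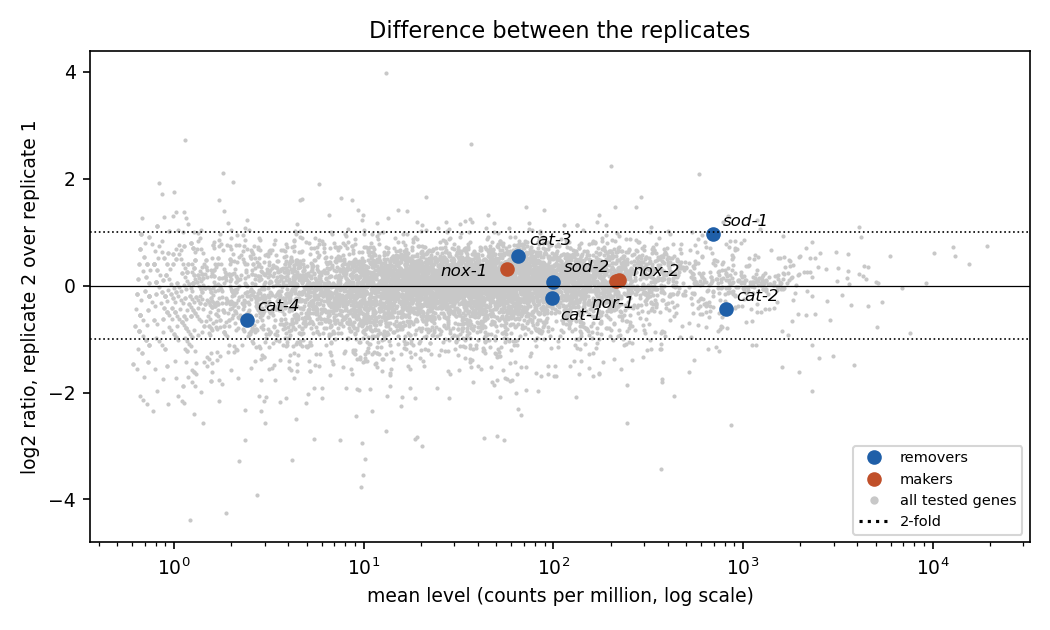
Log2 ratio of replicate 2 over replicate 1 against mean level in CPM (log scale) for all tested genes (grey), with removers in blue, makers in orange and dotted lines at 2-fold. sod-1 lies just inside the upper 2-fold line (log2 ratio 0.95), cat-2 lies below 0 (−0.44), and nox-2 and nor-1 lie close to 0 (0.10 and 0.09).

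Conidial markers also differed between the libraries, and all but con-6 of the 4 passed the exact binomial test (57.3% of all tested genes did). con-10 (NCU07325) had 25.9 CPM in replicate 1 and 5.87 in replicate 2, and con-8 had 144 and 67.3 CPM, while eas (NCU08457), the gene of the spore surface protein, had 53.6 and 76.0 CPM and con-6 had 1.21 and 2.05 CPM. Summed, the 4 markers stood at 225 CPM in replicate 1 and 151 CPM in replicate 2, and none was at 0. Of the 4, con-10 (4.23-fold) and con-8 (2.06-fold) also passed 2-fold, both higher in replicate 1, against 5.04% of all tested genes. By edgeR's exact test con-10 alone of the 4 passed, with an adjusted p of 0.0211, against 51 of the 7898 tested genes. By the exact binomial test con-10 and con-8 were higher in replicate 1, as were cat-1, cat-2 and 28.2% of all tested genes. In replicate 2 eas was higher, as were cat-3, sod-1, the 3 makers and 29.1% of all tested genes. The part of the conidial markers in the differences of the catalases and dismutases was not tested.

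Other genes listed as linked to this chemistry, by locus or symbol, were set beside the 9. They include regulators and partners of the oxidases as well as enzymes. The list held 16 genes, of which 11 carried a symbol in the gene table and 5 are given by locus only. By the exact binomial test 4 of the 16 were higher in replicate 1 (28.2% of all tested genes), 6 were higher in replicate 2 (29.1%) and 6 did not pass, so the 10 that passed are a share near that of all tested genes (57.3%). The median log2 ratio was 0.00 over the 16 and 0.00 over all tested genes.

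Among the regulators with a symbol, os-2 (NCU07024), the stress-activated MAP kinase gene, had 240 CPM in replicate 1 and 230 CPM in replicate 2. It did not pass (adjusted p = 0.946 in the exact binomial test). The response regulator gene rrg-2 (NCU02413), at 42.2 and 41.3 CPM, and the bZIP factor gene asl-1 (NCU01345), at 89.4 and 83.8 CPM, did not pass either (exact binomial test, adjusted p = 0.819 and 0.608). The response regulator gene rrg-1 (NCU01895), which acts upstream of the os-2 kinase, was 1.29-fold higher in replicate 1, with 73.7 and 55.0 CPM (exact binomial test, adjusted p = 1.08e-07). In Neurospora the os-2 kinase and the asl-1 factor are known to act on cat-1. Here cat-1 and rrg-1 were higher in the same library, as were 28.2% of all tested genes, and os-2 and asl-1 did not pass. Neither cat-1 nor rrg-1 passed edgeR's exact test, which 51 of the 7898 tested genes passed. A link between these genes was not tested.

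Among the genes with a symbol whose products activate NADPH oxidases in other fungi, rac-1 (NCU02160), a small GTPase gene, had 189 CPM in replicate 1 and 254 in replicate 2 and was 1.40-fold higher in replicate 2 (exact binomial test, adjusted p = 2.21e-41). cdc-24 (NCU06067), the gene of an exchange factor for small GTPases, had 59.8 and 54.6 CPM and did not pass (exact binomial test, adjusted p = 0.368).

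The glutathione S-transferase genes, whose enzymes join glutathione to toxic compounds, were higher in replicate 2 in 3 of 4 cases, against 29.1% of all tested genes. gst-4 (NCU10521) was 2.50-fold higher there, with 26.4 and 63.5 CPM (exact binomial test, adjusted p = 8.23e-59). It was the only one of the 16 genes that also passed 2-fold, a share near the 6.15% of all tested genes. gst-1 (NCU05780) was 1.71-fold and gst-2 (NCU04109) 1.45-fold higher in replicate 2 (exact binomial test, adjusted p = 2.78e-73 and 3.51e-29), while gst-3 (NCU01320), at 48.9 and 44.6 CPM, did not pass (exact binomial test, adjusted p = 0.405). The thioredoxin reductase gene cys-9 (NCU08352) had 45.8 and 44.5 CPM and did not pass (exact binomial test, adjusted p = 0.911). edgeR's exact test gave none of these genes an adjusted p under 0.05, with gst-4 at 0.404, against 51 of the 7898 tested genes.

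All 5 genes given by locus only passed the exact binomial test, as did 57.3% of all tested genes. NCU03297 was 1.55-fold and NCU03339 1.12-fold higher in replicate 2, and NCU03905 (1.27-fold), NCU06593 (1.24-fold) and NCU09111 (1.18-fold) were higher in replicate 1. NCU03905 had been listed with the stress regulators and NCU06593 with the oxidase partners, though the gene table gives neither a symbol. Per kilobase NCU03297, at 217 ± 60.4 CPM (SD, n = 2), had the highest mean of the 16. Of the 9 genes, sod-1 and cat-2 had higher means, but in replicate 2 NCU03297 (260 CPM per kilobase) stood above cat-2 (227).

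**Figure D4:**
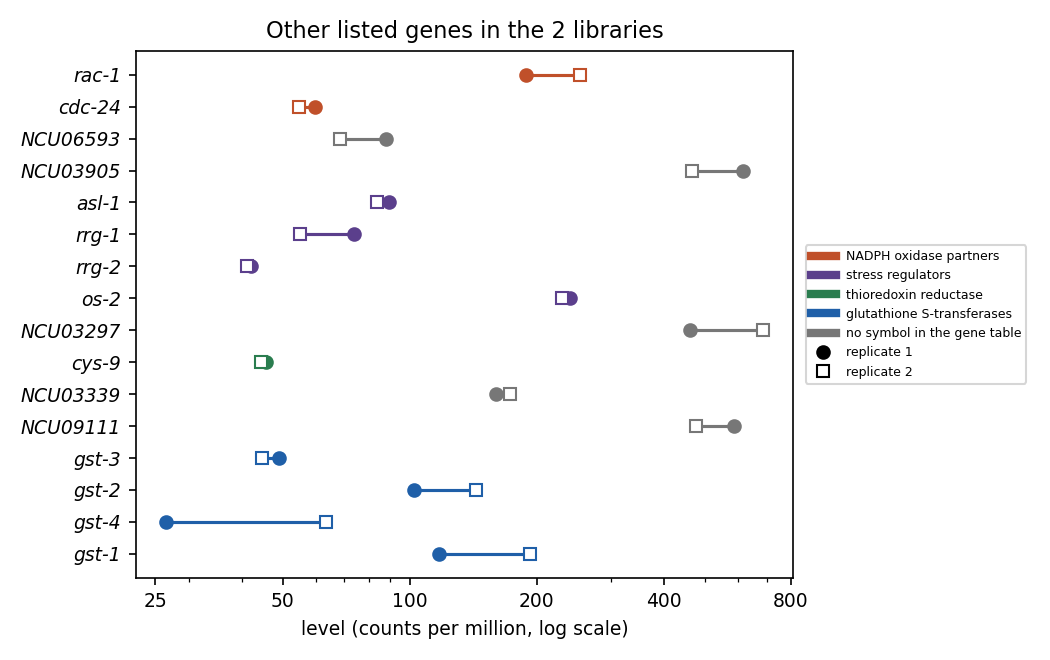
Level in CPM (log scale) of the 16 other listed genes in replicate 1 (filled circles) and replicate 2 (open squares), coloured by kind, with genes without a symbol in grey. gst-4 has the widest gap (26.4 and 63.5 CPM), and os-2, rrg-2 and cys-9 nearly coincide.

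With 2 libraries there is no profile over conditions to compare, so likeness was measured as the distance in log2(CPM + 1) over both libraries to every gene with a symbol. This distance does not use length, so near genes may still differ per kilobase. The nearest to nor-1 was cyt-20 (NCU01965; distance 0.017) and the nearest to nox-2 was nuo21.3b (NCU02280; 0.055). The nearest to cat-2 was mig-6 (NCU09285; 0.035). sod-1 had no near neighbour of that kind, as the closest gene, rhd (NCU06031), lay at a distance of 0.20. No gene of the table overlapped any of the 9 genes. Whether reads of cat-1 and cat-3, which encode related enzymes, can align to both genes was not tested.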

How the data were processed

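Poly-A RNA was sequenced in 2 libraries of 1 strain, made with a stranded mRNA kit per the labels' protocols. The authors deposited raw whole-number counts of reads per gene. The submitters' processing notes list Bowtie, Bowtie2, TopHat, SAMtools, HTSeq and DESeq. Not given in the sources used here are their roles and versions, the strand setting, the annotation and the build, so no coordinates are printed. The 5 rows that name no gene (10.2% and 9.19% of all rows' counts) stayed out of library sizes and tests.

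Levels are CPM. Names and gene spans came from the RefSeq table of NC12. Spans include introns and replaced the coding lengths that were planned, because no coding lengths or sequences were used here. Tests used edgeR 4.0.16 and DESeq2 1.42.0 (size factors only) in R 4.3.3, with scipy 1.17.1 in Python 3.11.15. Log2 ratios had 0.5 counts added. The binomial test was checked on simulated counts with counting noise only, so the check does not cover the larger spread between these libraries. A quasi-likelihood test needs groups and could not be fitted. Intervals are exact (Poisson for levels, Clopper-Pearson for ratios), and PCR reads without molecular identifiers are not independent molecules.

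The members, lists and tests were chosen with earlier results of these data known. Named genes are the members, dim-1, 4 conidial markers, a list of 13 loci, and genes with symbols of the sod, cat, trx, grx, prx, gpx and gst families. A locus with another symbol in the table was dropped (1 gene), and one without a symbol was given by locus. For likeness, the 2 nearest genes per member were found and some of the nearest are named. Alternatives were the scaling, the count minimum, the added count, the test, the length and each replicate left out.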

Additional observations from a re-analysis of the deposited data

How the results depend on the processing

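The removers-to-makers ratio was 6.07 per kilobase of gene span and 3.58 without length, and leaving out each replicate gave 5.56 to 6.58. The median level of the 9 genes in a library, 104 CPM as the mean over libraries, ran from 100.3 to 108 with each replicate left out. No member was called at 2-fold under total counts or DESeq2 size factors. The count minimum and edgeR's exact test leave each member's ratio unchanged and under 2-fold, so these settings could add no call. At a minimum of 100 counts cat-4 was not tested. The median log2 ratio of the members stayed between 0.04 and 0.09. No ratio of a member changed sign under the settings run. nox-2 and nor-1 lost their adjusted p under 0.05 with total counts, and all 7 genes that had one lost it with edgeR's exact test, whose adjusted p-values ran from 0.954 to 1. Over all tested genes the called count was 486, 385 at a minimum of 100 counts, where fewer genes were tested, and 51 by edgeR's exact test. No alternative to gene span as the length could be run, since coding lengths were not used here. No paired analysis was possible because both libraries belong to 1 group. At 52 and 25 counts, depth limits what can be said of cat-4.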
